A study of Mus musculus with 12 samples.

Results

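The genes described here are 10 listed as monocyte and dendritic lineage markers, not all of them specific to these cells. They are F13a1, Vcan, Mgam, Sirpb1a, Itgam, Itgax, Siglech, Cd68, Adgre1 and Mpeg1. They were taken as every probe set that the platform annotation gives to exactly 1 of these symbols, which was 17 of 45037 probe sets and covered all 10 genes, of 18193 genes measured. Vcan had 8 probe sets and each of the other 9 genes had 1, and 1 further probe set that Sirpb1a shares with related genes was left out. The cultures were started from KSL cells of mouse marrow, a sorted fraction that carries c-Kit and Sca-1, lacks lineage markers and holds stem and early progenitor cells. They came from wild-type mice or from mice labelled Fancc-/-, aged 2 to 4 months and of a strain the labels leave unstated. All cultures received Flt3L at 50 ng/ml, IL-6 at 20 ng/ml, and SCF and IL-11 at 10 ng/ml each, in 10% serum for 24 h, and the treated ones also TNF alpha at 10 ng/ml. Each of the 4 combinations of genotype and treatment had 3 Affymetrix arrays, 12 in all. The labels do not say that replicates came from separate mice or cultures, so p-values here measure the spread between samples alone, and that spread may be technical.

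Monocytes and dendritic cells arise in the marrow from myeloid progenitors, with the growth factor Flt3 ligand favouring the dendritic branch. As cells enter the monocyte branch they take up genes for adhesion receptors, matrix proteins and Fc receptors, and macrophages and dendritic cells later add lysosomal and antigen-presenting proteins. TNF is an inflammatory cytokine that acts on progenitors through NF-kB and is widely used with growth factors to drive dendritic cell culture. The cells measured here were sorted as lineage-negative and then kept for a day in factors that allow differentiation. An array of a mixed culture cannot tell fewer cells of a type from less RNA per cell.

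Values are log2 signals made with robust multi-array average (RMA), so a difference of 1 is a 2-fold change. The median of all probe set values was 6.02 and the lower quartile 4.14, and changes of genes near or under the latter are compressed. The arrays were set against the sort by a few marker genes. Kit read 9.95 to 10.77 and Cd34 12.81 to 13.13 over the 12 arrays, while the T cell gene Cd3e read at most 3.69 and the B cell gene Ms4a1 at most 4.40. Genes of lineages the sort removes were not all low after the culture. On untreated arrays the mean level ran from 9.3 to 9.92 for 21 granulocyte genes and from 8.66 to 9.19 for 33 monocyte and macrophage genes. For 12 B cell genes it ran from 5.86 to 6.07, below the median of 7.44 over the genes tested. The Sca-1 gene Ly6a was not analysed here. Fancc itself was not lower on the arrays labelled Fancc-/-, where its group means were 9.01 and 8.98 against 8.33 and 8.42 on wild-type arrays. Whether its probes lie in the disrupted part is not known here, so these groups are named by their mutant label. The sex-linked genes Xist and Eif2s3y differed between replicates of 3 of the 4 groups, and their levels are used below as covariates.

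Of the 10 markers, 5 fell with TNF in wild-type cells and 0 rose (limma, adjusted p under 0.05 over 18193 genes), where 2.33% of all genes fell and 2.69% rose. Under the mutant label 4 fell and 1 rose, where 1.86% of all genes fell and 2.45% rose. The markers were chosen with earlier results of these data known, so these shares give scale and do not test the set. The median change of the 10 was -1 in wild type and -0.42 under the mutant label, against -0.03 over all genes in each case. The markers divided into those that fell by at least 6.6-fold in both genotypes (F13a1, Vcan, Mgam and Sirpb1a), Mpeg1 with a smaller fall, and the integrin, lysosomal, Adgre1 and Siglech genes. For 5 markers the treated arrays lay below all untreated arrays of the same genotype in wild type, and likewise for 5 under the mutant label. Over all genes this held for 11.7% in wild type and 15.8% under the mutant label.

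**Figure D1:**
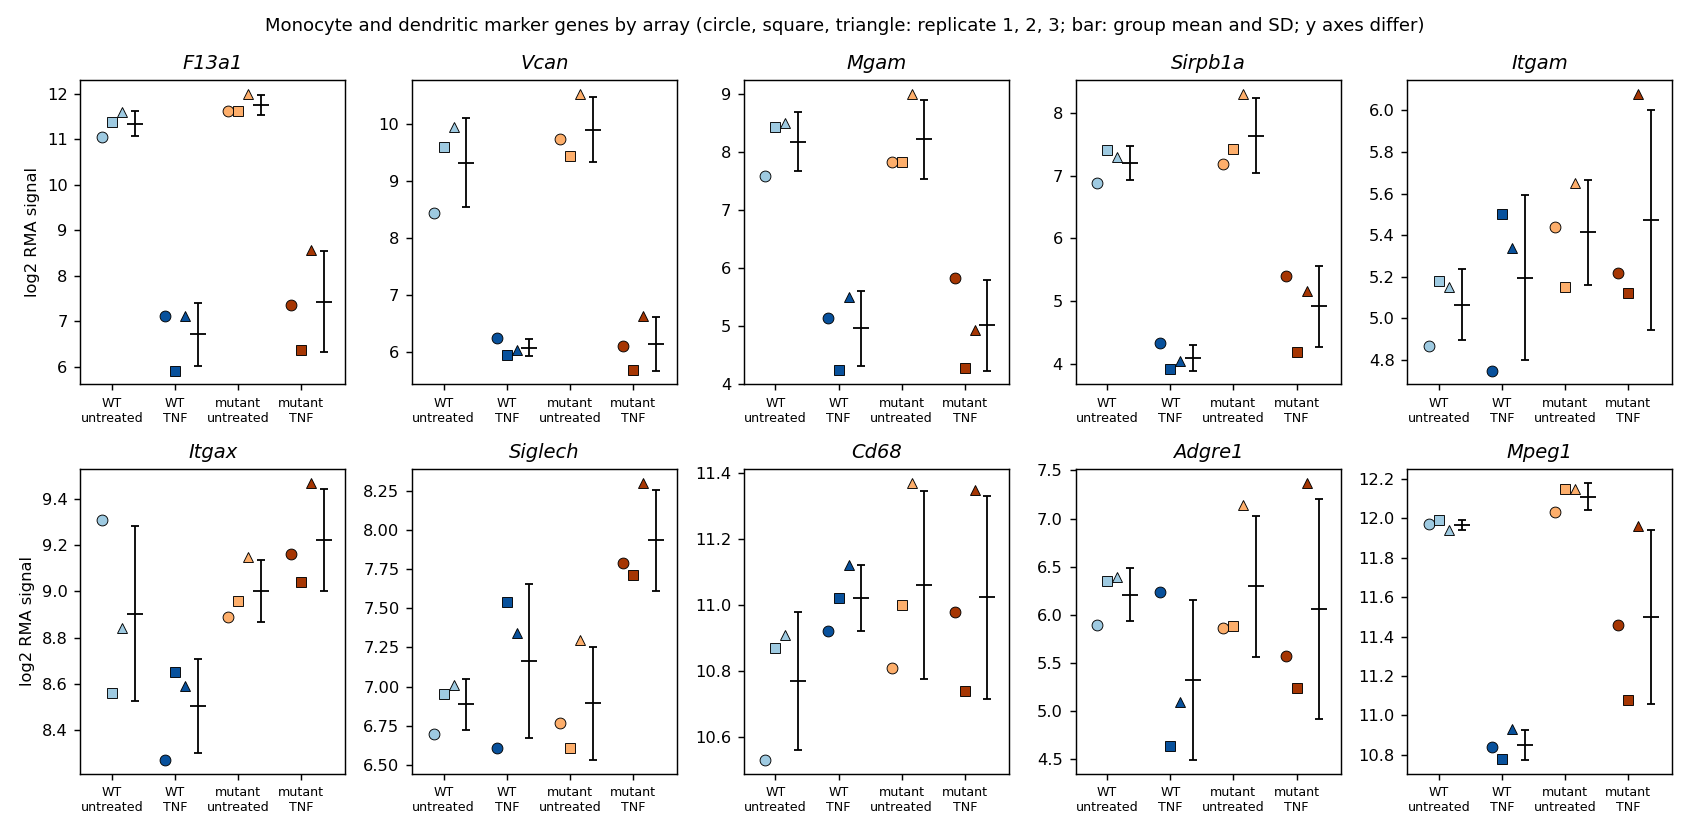
Log2 RMA signal (y axis, a different range for each gene) of the 10 marker genes on each of the 12 arrays, by group (x axis), with the group mean and SD (n = 3) beside the points and replicates 1, 2 and 3 as circle, square and triangle. F13a1, Vcan, Mgam and Sirpb1a drop with TNF without overlap in both genotypes, while Itgam, Itgax and Adgre1 overlap between treatments.

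The regions before the transcription starts of genes that fell together are given for reference. Those of Itgam, which did not pass, and of Siglech, called higher under the mutant label only and weakly, are given beside them. RefSeq starts (GRCm38.p6) were found for 9 of the 10 genes, not for Adgre1. Each sequence below is the 250 bases before the start, 5′ to 3′ on the gene's strand, with matches to 4 motifs in capitals.

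F13a1, upstream start (chr13:37050245-37050494, minus strand): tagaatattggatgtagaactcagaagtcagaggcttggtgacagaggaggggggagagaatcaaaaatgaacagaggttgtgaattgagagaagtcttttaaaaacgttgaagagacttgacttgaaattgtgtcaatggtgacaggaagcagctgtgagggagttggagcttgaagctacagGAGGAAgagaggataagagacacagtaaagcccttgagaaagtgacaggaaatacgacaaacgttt
F13a1, downstream start (chr13:37049214-37049463, minus strand): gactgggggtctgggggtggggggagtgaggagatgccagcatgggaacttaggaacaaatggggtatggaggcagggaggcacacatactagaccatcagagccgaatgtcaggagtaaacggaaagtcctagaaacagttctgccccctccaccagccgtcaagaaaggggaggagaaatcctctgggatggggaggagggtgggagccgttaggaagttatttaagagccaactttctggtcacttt
Vcan (chr13:89742513-89742762, minus strand): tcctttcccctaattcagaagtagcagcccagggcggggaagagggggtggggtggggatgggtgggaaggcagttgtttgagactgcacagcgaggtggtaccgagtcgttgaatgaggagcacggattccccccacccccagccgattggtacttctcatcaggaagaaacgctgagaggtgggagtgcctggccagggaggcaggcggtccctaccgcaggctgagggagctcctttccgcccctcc
Mgam (chr6:40628581-40628830, plus strand): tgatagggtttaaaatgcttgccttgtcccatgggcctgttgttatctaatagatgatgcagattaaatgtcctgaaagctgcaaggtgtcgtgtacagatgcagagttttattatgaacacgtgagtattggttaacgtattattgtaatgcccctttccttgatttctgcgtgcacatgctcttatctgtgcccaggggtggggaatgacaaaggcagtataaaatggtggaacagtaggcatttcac
Sirpb1a (chr3:15426428-15426677, minus strand): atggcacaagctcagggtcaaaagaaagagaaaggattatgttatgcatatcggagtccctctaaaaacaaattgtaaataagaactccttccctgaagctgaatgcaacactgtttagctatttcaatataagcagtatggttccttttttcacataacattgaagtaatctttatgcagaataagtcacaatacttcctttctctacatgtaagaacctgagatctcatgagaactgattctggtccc
Itgam (chr7:128062390-128062639, plus strand): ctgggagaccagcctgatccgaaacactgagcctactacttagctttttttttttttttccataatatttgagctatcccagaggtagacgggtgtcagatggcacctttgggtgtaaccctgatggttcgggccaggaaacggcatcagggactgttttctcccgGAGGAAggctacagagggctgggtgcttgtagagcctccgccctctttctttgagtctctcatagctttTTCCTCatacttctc
Siglech (chr7:55767934-55768183, plus strand): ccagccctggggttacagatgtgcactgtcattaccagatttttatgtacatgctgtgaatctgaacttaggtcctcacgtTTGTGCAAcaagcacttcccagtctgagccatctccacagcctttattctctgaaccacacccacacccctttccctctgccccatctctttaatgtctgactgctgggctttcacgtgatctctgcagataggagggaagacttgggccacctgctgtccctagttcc

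The motifs were the PU.1 core GAGGAA, a C/EBP core TTNNGCAA, an ETS and IRF composite GGAANNGAA and an NF-kB core GGGNNTTCC, read on both strands, where the PU.1 core and the composite can overlap. Over 32851 windows of the same length, 23.3% held the PU.1 core, 9.56% the C/EBP core, 6.99% the composite and 4.98% the NF-kB core. Of the 9 genes, 3 held the PU.1 core (F13a1 at its upstream start only, Itgam at 2 places, and Cd68) and 2 held the C/EBP core (Siglech and Cd68). The composite and the NF-kB string GGGNNTTCC matched 0 of the 9. Other forms of the NF-kB site were not searched, so this does not show that such sites are absent. A match is a string of letters and was not tested as a binding site. Among the markers that fell, F13a1 alone held any of the 4 motifs, and Itgam, which did not pass for TNF, held the PU.1 core on both strands.

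F13a1 encodes the A subunit of coagulation factor XIII, a transglutaminase that monocytes and some macrophages carry inside the cell. It read 11.04, 11.38 and 11.59 on untreated wild-type arrays and 7.12, 5.92 and 7.12 with TNF. With the mutant label the values were 11.61, 11.62 and 12 untreated and 7.36, 6.36 and 8.57 with TNF. All 6 treated arrays lay below all 6 untreated ones. The change was -4.62 in wild type (24.6-fold, SE 0.48, limma adjusted p = 0.000344) and -4.31 under the mutant label (19.8-fold, SE 0.48, adjusted p = 0.000544). The treated arrays differed more among themselves than the untreated ones, with SDs of 0.70 and 1.11 against 0.28 and 0.22 (n = 3 each).

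Vcan encodes versican, a large chondroitin sulphate proteoglycan of the extracellular matrix that classical monocytes express. Its brightest probe set read 8.44, 9.59 and 9.94 untreated and 6.25, 5.96 and 6.05 with TNF in wild type. Arrays with the mutant label read 9.74, 9.43 and 10.53 untreated and 6.12, 5.70 and 6.63 with TNF. Every treated array was below every untreated one. The fall was -3.23 in wild type (9.41-fold, SE 0.39, limma adjusted p = 0.000874) and -3.75 under the mutant label (13.4-fold, SE 0.39, adjusted p = 0.00032). The 8 probe sets of Vcan did not behave alike. When all 45037 probe sets were tested, 2 further probe sets fell with it, by -2.80 and -3.19 in wild type (limma adjusted p = 0.0119 and 0.0102) and by -2.79 and -3.11 under the mutant label (adjusted p = 0.0133 and 0.0131). The remaining 5 had a signal of at most 4.86 on any array, and none of them passed, with changes from -0.29 to 0.06 in wild type and from -0.76 to 0.08 under the mutant label. With the mean of all 8 in place of the brightest, the change of the gene was -1.21 and -1.37, and it still passed in both.

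**Figure D2:**
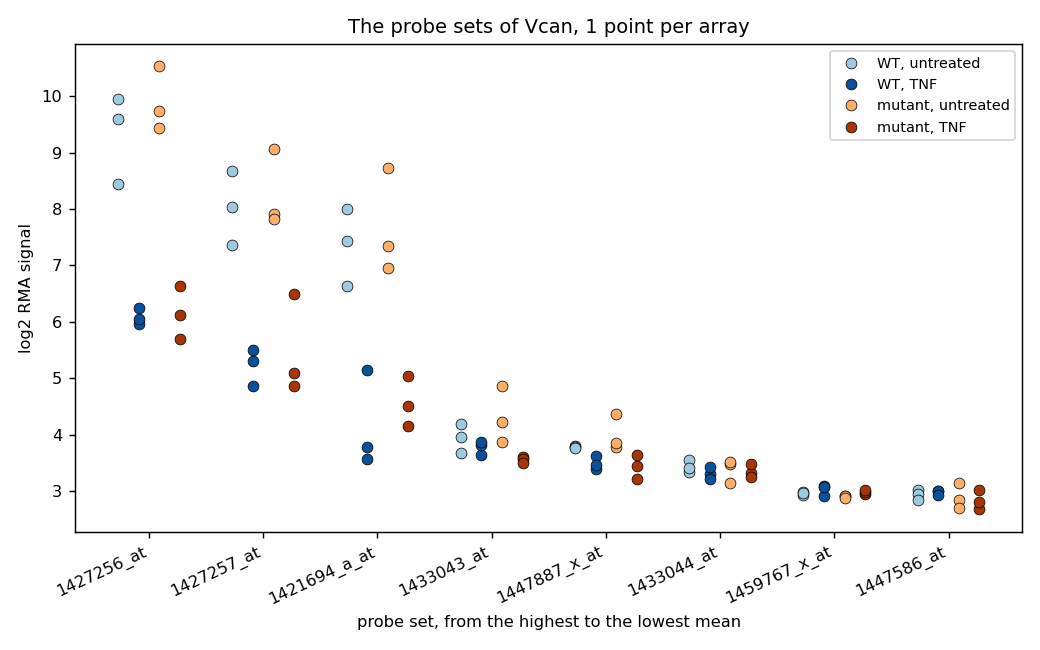
Log2 RMA signal (y axis) of the 8 Vcan probe sets (x axis, from the highest to the lowest mean) with 1 point per array, coloured by group. The 3 brightest separate untreated from treated arrays in each genotype, while the other 5 stay at or below 4.86.

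Mgam encodes maltase-glucoamylase, a starch-digesting enzyme of the intestine that is also found in myeloid cells. It read 7.58, 8.43 and 8.49 untreated and 5.13, 4.24 and 5.5 with TNF in wild type. The mutant-labelled arrays read 7.82, 7.82 and 9 untreated and 5.82, 4.27 and 4.92 treated. The treated and untreated arrays did not overlap in either genotype. The change was -3.21 in each, with an SE of 0.47 (limma adjusted p = 0.00288 in wild type and 0.00323 under the mutant label). The lowest treated arrays, at 4.24 in wild type and 4.27 under the mutant label, sat near the lower quartile of all probe sets. Both falls may therefore be understated.

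Sirpb1a encodes a signal-regulatory protein of the beta kind, a myeloid receptor that signals through the adaptor DAP12, the product of Tyrobp. It read 6.89, 7.41 and 7.29 untreated and 4.32, 3.92 and 4.04 with TNF in wild type. With the mutant label the values were 7.18, 7.42 and 8.31 untreated and 5.40, 4.18 and 5.16 with TNF. The fall was -3.10 (SE 0.34, limma adjusted p = 0.00048) and -2.72 (SE 0.34, adjusted p = 0.00118). The treated wild-type arrays sat around the lower quartile of all probe sets, so this fall may be understated. Tyrobp itself stood 0.91 lower with TNF in wild type and 0.71 lower under the mutant label and did not pass (limma adjusted p = 0.0677 and 0.17). The inhibitory relative Sirpa differed by -0.01 and 0.13, and its ligand gene Cd47 by -0.10 and -0.08, and neither passed.

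Mpeg1 encodes a pore-forming protein of phagocytes that kills ingested bacteria. It read 11.97, 11.99 and 11.94 untreated and 10.84, 10.78 and 10.93 with TNF in wild type, an SD of at most 0.08 in each group. Arrays with the mutant label read 12.03, 12.15 and 12.15 untreated and 11.46, 11.08 and 11.96 treated. Treated arrays lay below untreated ones in both genotypes, but treated replicate 3 of the mutant label, at 11.96, was close to its lowest untreated array. The change was -1.12 in wild type (2.17-fold, SE 0.17, limma adjusted p = 0.00365). Under the mutant label it was -0.61 (SE 0.17) and did not pass (limma adjusted p = 0.0787). It passed in 1 of the 12 fits that left out 1 array, at -0.84 without treated replicate 3 of that genotype (adjusted p = 0.00401). In the others it did not (adjusted p up to 0.205).

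Siglech encodes a sialic acid-binding lectin that marks plasmacytoid dendritic cells and, like Sirpb1a, couples to DAP12. It read 6.70, 6.95 and 7.01 untreated and 6.61, 7.54 and 7.34 with TNF in wild type, where the groups overlapped. The mutant-labelled arrays read 6.77, 6.61 and 7.30 untreated and 7.79, 7.71 and 8.30 with TNF, without overlap, which held for 10.4% of all genes in this direction. The change was 0.27 (SE 0.26) in wild type, with limma adjusted p = 0.649, and 1.04 (SE 0.26) under the mutant label, with adjusted p = 0.0466. This call is weak. It was lost in 9 of the 12 fits that left out 1 array (adjusted p up to 0.17), and with the Xist and Eif2s3y covariates (0.93, adjusted p = 0.205). The difference between the genotypes in this TNF effect was 0.77 (95% interval -0.03 to 1.56) and did not pass.

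Itgam and Itgax encode CD11b and CD11c, the alpha chains of integrins of myeloid and dendritic cells that share the beta chain encoded by Itgb2. Itgam was dim throughout, at 4.87, 5.18 and 5.15 untreated and 4.75, 5.5 and 5.34 with TNF in wild type, and 5.44, 5.15 and 5.65 against 5.22, 5.12 and 6.08 under the mutant label. Its TNF difference was 0.13 (95% interval -0.44 to 0.71) and 0.06 (-0.52 to 0.64), and its groups overlapped. Itgax read 9.31, 8.56 and 8.84 untreated and 8.27, 8.65 and 8.59 treated in wild type, and 8.89, 8.96 and 9.15 against 9.16, 9.04 and 9.47 under the mutant label. Its TNF difference was -0.40 in wild type (95% interval -0.81 to 0.01) and 0.22 under the mutant label (-0.18 to 0.63), and neither passed. Itgb2 stood 0.29 and 0.60 higher with TNF, which also did not pass (limma adjusted p = 0.413 and 0.0721).

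Cd68 encodes a lysosomal glycoprotein of macrophages related to the LAMP proteins. It was bright on every array, from 10.53 to 10.91 untreated and from 10.92 to 11.12 with TNF in wild type, and from 10.81 to 11.37 and from 10.74 to 11.35 under the mutant label. In wild type every treated array was above every untreated one, as for 8.87% of all genes, but the difference of 0.25 (95% interval -0.14 to 0.64) did not pass. Under the mutant label it was -0.04 (-0.43 to 0.36). Adgre1, the gene of an antigen widely used to mark mouse macrophages, read 5.89, 6.35 and 6.39 untreated and 6.24, 4.63 and 5.09 with TNF in wild type. With the mutant label the values were 5.86, 5.88 and 7.14 untreated and 5.57, 5.24 and 7.37 treated, and its groups overlapped in both genotypes. Its differences of -0.89 (95% interval -2.15 to 0.37) and -0.23 (-1.49 to 1.03) had the widest intervals of the 10 markers. Its relative Adgre4 rose by 3.64 (SE 0.47, limma adjusted p = 0.00132) in wild type and by 4.6 (SE 0.47, adjusted p = 0.000309) under the mutant label.

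**Figure D3:**
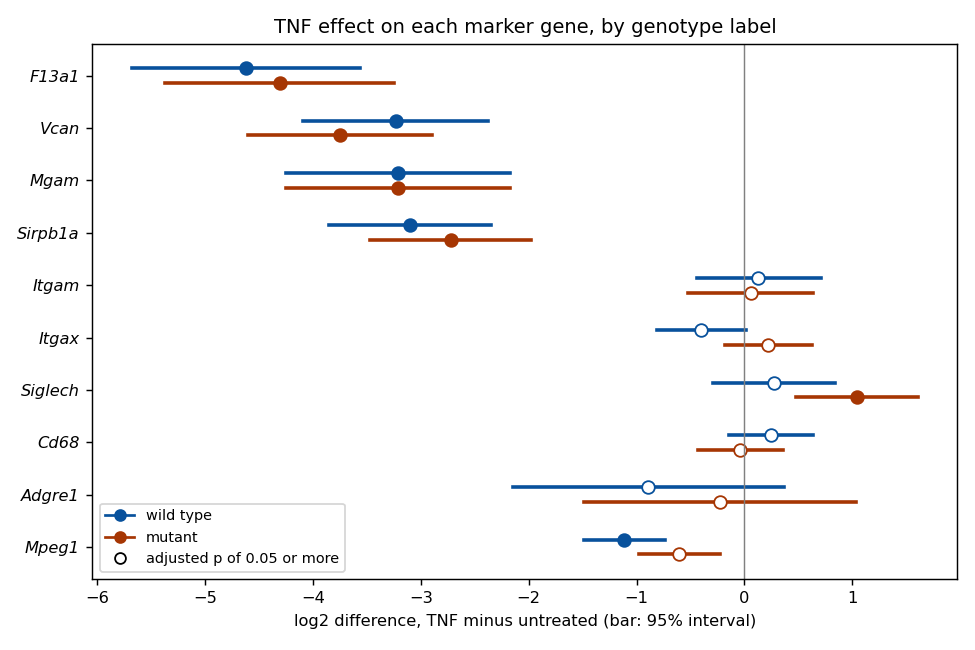
Log2 difference between TNF-treated and untreated arrays (x axis) with its 95% interval for each marker gene (y axis), in wild type (blue) and under the mutant label (brown), 3 arrays per group. Filled points passed at adjusted p under 0.05 over all genes: F13a1, Vcan, Mgam and Sirpb1a in both, Mpeg1 in wild type, and Siglech under the mutant label.

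Averaged over genotype, 5 of the 10 markers fell and 1 rose with TNF, where 6.32% of all genes fell and 5.81% rose. The averages were -4.46 for F13a1 (SE 0.34), -3.49 for Vcan, -3.21 for Mgam, -2.91 for Sirpb1a, -0.86 for Mpeg1 (SE 0.12) and 0.66 for Siglech (SE 0.18). Siglech passed at limma adjusted p = 0.0378, and did not with all probe sets tested (0.0539) or with the Xist and Eif2s3y covariates (0.254), nor in 9 of the 12 fits that left out 1 array.

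Genotype was compared at each treatment to ask whether the Fancc label alone moves these markers. Without TNF 0 of the 10 passed in limma, as against 0.0055% of all genes, and 0 had an unadjusted p under 0.05, as did 4.12% of all genes, so a count of 0 among 10 says nothing particular of the markers. With TNF 0 passed, again against 0.0055% of all genes, and 4 had an unadjusted p under 0.05, as did 5.6% of all genes. All 10 estimates were at or above 0 in both comparisons, from 0.00 to 0.58 without TNF and from 0.00 to 0.82 with it, while 45.8% and 47.3% of all genes were above 0. The markers are not independent of each other. With replicate 3 of the mutant-labelled arrays left out at both treatments, a choice made after the values were seen, 7 of the 10 were above 0 in each comparison. Of the planned fits that could move these differences, some kept all 10 and others lowered the count. The rest could not move them, namely the replicate block, other moderation, fewer groups and leaving out arrays of the other treatment. Their counts of 10 do not bear on stability. With the Xist and Eif2s3y covariates 8 of the 10 were above 0 in both comparisons. Without TNF, 7 were above 0 with array weights, without untreated wild-type replicate 1 or without untreated mutant-labelled replicate 3. Centring the arrays or leaving out untreated wild-type replicate 2 gave 9. With TNF, 7 were above 0 without treated mutant-labelled replicate 3. Leaving out treated wild-type replicate 1 or 2, or treated mutant-labelled replicate 1, gave 9. Among treated arrays the largest differences relative to their errors were those of Itgax (0.72, SE 0.19), Mpeg1 (0.65, SE 0.17) and Siglech (0.77, SE 0.26), with limma adjusted p = 0.446, 0.45 and 0.691. For these 3 the treated arrays labelled mutant lay above all treated wild-type arrays, as for 4.2% of all genes. Without TNF this held for F13a1 and Mpeg1, and for 3.82% of all genes.

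The test of whether the TNF effect depended on genotype called 0 of the 10 markers and 0% of all genes in limma. Of the 10, Itgax alone had an unadjusted p under 0.05, with 0.62 (95% interval 0.05 to 1.20), and 2.9% of all genes did. Mpeg1 had 0.51 (-0.02 to 1.04), and the 4 markers with the deepest falls lay between -0.51 and 0.38. The 95% interval of a single marker reached from 0.53 to 1.78 to each side, so differences of that size could have been missed.

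The replicates of a group were not spread evenly over the markers. On untreated arrays labelled mutant, replicate 3 was the highest of its group for all 10 markers, and over all genes for 30.3%. On the treated arrays labelled mutant, replicate 3 was the highest for 8 and replicate 2 the lowest for all 10, against 34.2% and 37.8% of all genes. Untreated wild-type replicate 1 was the lowest for 8 of the 10, against 32.1% of all genes. The mean deviation from the group over the 10 markers was 0.44 for untreated replicate 3, 0.51 for treated replicate 3 and -0.53 for treated replicate 2 of the mutant-labelled arrays. Other myeloid genes moved with them: over 33 measured monocyte and macrophage genes the deviations of these arrays were 0.27, 0.39 and -0.55, and over 21 granulocyte genes 0.15, 0.40 and -0.69. The part of this spread in the results was not tested beyond leaving out arrays. Without both replicate 3 arrays, the falls of F13a1, Vcan, Mgam, Sirpb1a and, at -0.82 and adjusted p = 0.0199 in limma, Mpeg1 passed under the mutant label, and Siglech did not (1.06, adjusted p = 0.109).

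**Figure D4:**
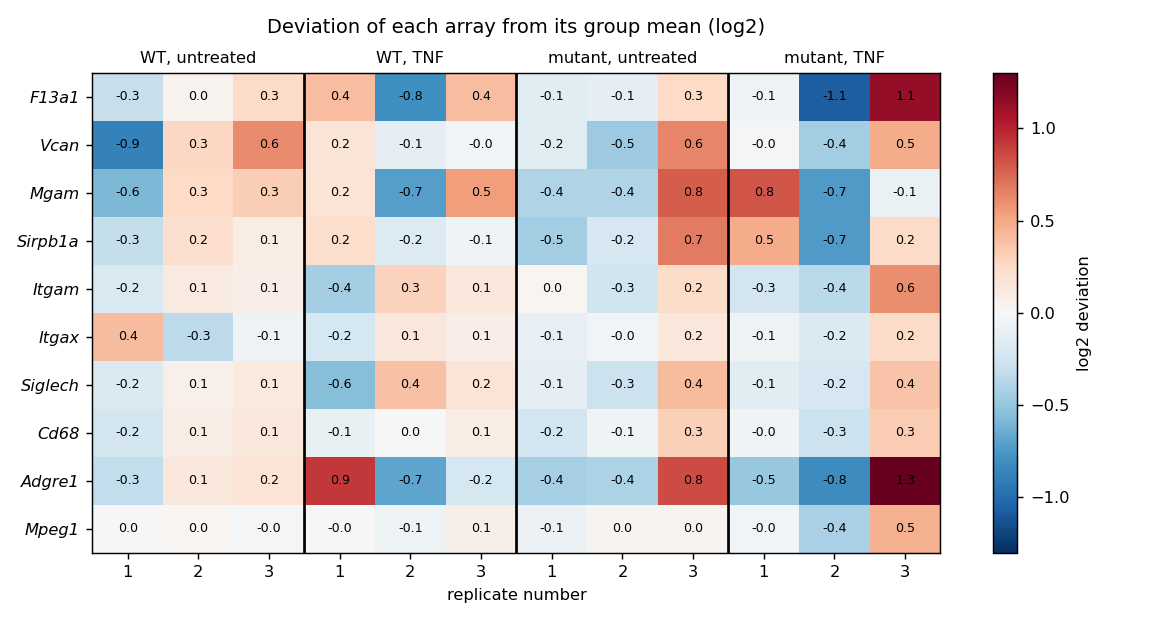
Deviation of each array from the mean of its own group (colour and number, log2) for the 10 marker genes (rows) over the 12 arrays (columns, 3 replicates in each of the 4 groups). Replicate 3 of the untreated arrays labelled mutant is above its group mean for all 10 markers, and treated replicate 2 of that label is below it for all 10.

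Among the other genes of these lineages, the monocyte and macrophage list mostly fell and the dendritic list mostly rose where members passed. These lists and those below were also chosen with earlier results known, so their counts do not test a lineage. Over all genes 2.33% fell and 2.69% rose in wild type, and 1.86% fell and 2.45% rose under the mutant label. Of 33 measured monocyte and macrophage genes 10 fell and 1 rose in wild type, and 6 fell and 1 rose under the mutant label, with medians of -0.60 and -0.27 (all genes -0.03). The Fc receptor gene Fcgr3 changed by -2.83 and -2.02, the scavenger receptor gene Msr1 by -2.02 and -2.47, and Fcgr4 by -2.16 and -2.07. Cx3cr1, the fractalkine receptor of patrolling monocytes, went the other way at 1.80 and 2.23. Of 26 measured dendritic genes 8 rose and 0 fell in wild type, and 10 rose and 0 fell under the mutant label, although the medians were only 0.19 and 0.03. Zbtb46, a transcription factor of classical dendritic cells, rose by 3.71 (SE 0.32) and 4.09 (SE 0.32), and Fscn1, the actin-bundling protein of mature dendritic cells, by 3.44 and 4.62. Ly6d, a surface protein of lymphoid and plasmacytoid dendritic progenitors, rose by 3.12 and 3.14.

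Of 22 measured transcription factors of these lineages, 4 rose and 2 fell in wild type, and 6 rose and 1 fell under the mutant label. Irf8, needed for monocytes and several dendritic subsets, fell by 1.78 and by 1.36 on the log2 scale. Irf4, used by another dendritic subset, rose by 2.28 and 1.82, Spib by 1.67 and 2.13, and the NF-kB subunit gene Relb by 3.20 and 3.49. Of 29 measured partners and relatives of the 10 markers, 1 rose and 0 fell in wild type, and 2 rose and 1 fell under the mutant label. Set against the shares over all genes given above, these few calls say nothing particular of this list. Adgre4 was called in both genotypes. Cd33, a sialic acid-binding lectin, differed by 1.03 in wild type and 1.6 under the mutant label (limma adjusted p = 0.165 and 0.0365). Hcst, an adaptor like Tyrobp, differed by -0.45 and -0.51 (limma adjusted p = 0.0514 and 0.0326). The TNF effect of neither gene differed between genotypes by the test (interaction 0.57 with SE 0.52 for Cd33 and -0.06 with SE 0.16 for Hcst).

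Granulocyte genes moved with the markers that fell. Of 21 measured, 12 fell and 0 rose in wild type and 9 fell and 0 rose under the mutant label, with medians of -1.27 and -1.38, among them Mmp8 (-5.08 and -4.75), Elane (-3.58 and -3.5) and Cxcr2 (-2.62 and -2.44). The mean level of this list ran from 9.30 to 9.63 untreated and from 7.33 to 7.97 with TNF in wild type, and from 9.65 to 9.92 and from 7.55 to 8.64 under the mutant label. The mean level of the 10 markers ran from 8.32 to 8.75 and from 6.82 to 7.11 in wild type, and from 8.60 to 9.26 and from 6.94 to 7.98 under the mutant label. The part of granulocyte precursors in the markers' fall was not tested. The mean level of 14 measured stem and progenitor genes ran from 9.42 to 9.74 untreated and from 9.67 to 9.73 with TNF in wild type, and from 9.24 to 9.48 and from 9.40 to 9.66 under the mutant label. None of them fell in limma in either genotype, where 2.33% of all genes fell in wild type and 1.86% under the mutant label. A count of 0 among 14 therefore says nothing particular of these genes. Procr, a stem cell surface receptor gene, differed by 1.3 in wild type and 1.67 under the mutant label (limma adjusted p = 0.0978 and 0.0396), with no called difference between genotypes (interaction 0.37, SE 0.56).

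**Figure D5:**
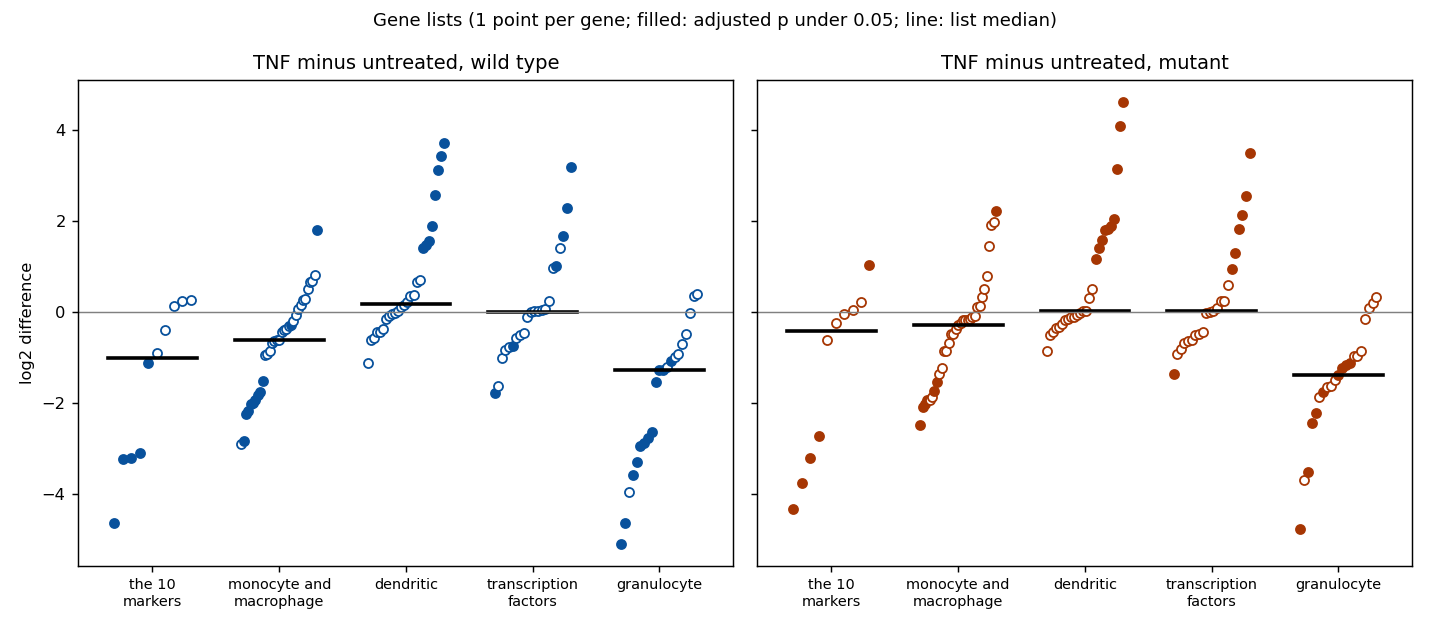
Log2 difference between TNF-treated and untreated arrays (y axis) for each gene of 5 lists (x axis), in wild type and under the mutant label, with filled points for adjusted p under 0.05 and a line at the list median. The filled points lie below 0 for the granulocyte list and above 0 for the dendritic list in both panels.

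The genes other than the 10 markers whose profiles were nearest to each marker were found by the root mean square (RMS) difference of log2 values over the 12 arrays, each gene first centred on its own mean. Outside the 10 markers, nearest to F13a1 were Ifitm6 (RMS difference 0.36), Mmp8 (0.52) and Ccr1 (0.75). Ccr1, a chemokine receptor gene, was the nearest such gene to Vcan (0.36) and to Mgam (0.46), and Spint1, a protease inhibitor gene, was nearest to Sirpb1a (0.38). The TNF changes of Ifitm6 were -4.13 in wild type and -4.16 under the mutant label, and those of Ccr1 -3.11 and -3.22. Within the 10, Vcan, Mgam and Sirpb1a lay within 0.51 of each other and F13a1 within 0.89 of them, while these 4 lay between 1.08 and 2.63 from the other 6. Tyrobp was among the 3 nearest to Mpeg1, at 0.17, beside Dse and Klrb1f. Cd68, which hardly moved, was nearest to Nr1h3, Ncf4 and Cyp3a13 (0.12 each), where a small distance mainly reflects that neither gene varied. Nearest to Siglech were P2rx7, Ckb and Rnase6 (0.24 each), and nearest to Adgre1 was Hsd11b1 (0.33). Itgam lay nearest to Ly96 (0.17) and Itgax to Angptl6 (0.17).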

How the data were processed

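Each deposited value is a log2 signal of 1 probe set on a single-colour Affymetrix mouse array, made by the authors with RMA (submitters' processing notes, which name no version), and the log base was taken from the values (2.14 to 14.94). Sample titles gave the group and replicate number. The platform annotation gave 1 symbol to 34945 probe sets that are not controls and several to 932, and 9160 were unnamed. A gene was represented by its brightest probe set, which gave 18193 genes.

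Group means of the 12 arrays were estimated for every gene and compared with moderated variances in limma 3.58.1 (R 4.3.3). Tests were 2-sided with Benjamini-Hochberg adjustment over all genes, and called means an adjusted p under 0.05. Precision is limited by the number of arrays. The 10 markers and the 12 other gene lists (243 genes, 217 measured) were chosen with earlier results of these data known. From each list, at most the 3 highest and 3 lowest changes among genes called in both genotypes were named, or else the 2 smallest p. Hcst, Cd33, Gp1bb and Klrd1 were named after their values were seen. Partners of a marker could be named at any value. The scripts were tested on simulated data. Same-numbered arrays did not deviate together in every pair of groups (correlations from -0.159 to 0.278), so the numbers were not treated as pairing samples. Alternatives were a replicate block, a filter on dim genes, other probe set summaries, 2 other scalings, other moderation, array weights, fewer groups, sex-linked covariates and leaving out each array. Leaving out replicate 3 of the mutant label at both treatments was added after seeing the data. RMA equalises arrays, so an overall shift could not be seen.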

Additional observations from a re-analysis of the deposited data

How the results depend on the processing

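Over 22 alternatives, the filter on dim genes set apart, F13a1, Vcan, Mgam and Sirpb1a kept their fall and their call in both genotypes, as did Mpeg1 in wild type. The replicate block gave 5 markers called in each genotype and 6 in the average, and changed no marker's call. The filter on dim genes (9444 genes kept) tested 7 of the 10 markers and called 4 in each genotype, which does not bear on stability, since Vcan and Mgam passed it only through untreated arrays, Siglech only through treated ones, and F13a1 through the untreated arrays and 1 treated one. Sirpb1a, Itgam and Adgre1 were below it. Mpeg1 under the mutant label passed in 3 of 23 alternatives (limma adjusted p from 0.00401 to 0.232), among them trend and robust moderation (0.045). Siglech there passed in 10 of 23 alternatives (limma adjusted p from 0.0131 to 0.205). The 10 include the filter on dim genes, and that pass does not bear on stability for the reason given above. Among those that lost the call were the fit of only the groups compared (0.0608) and all probe sets tested (0.0732). Changes that did not pass turned sign in a few fits. With array weights the TNF difference of Cd68 under the mutant label was 0.04, and without both replicate 3 arrays of that label that of Itgam was -0.12. Leaving out 1 array at a time gave from -0.02 to 0.36 for Itgam in wild type, and under the mutant label from -0.24 to 0.24 for Itgam, from -0.20 to 0.12 for Cd68 and from -0.89 to 0.19 for Adgre1. The cause was not tested. Over all genes, 913 were called in wild type and 784 under the mutant label, against 410 and 452 with the sex-linked covariates and 731 and 292 without both replicate 3 arrays. In wild type 523 were called when fitting only the groups compared, and 474 and 509 without treated and untreated replicate 3. Under the mutant label 1168 were called with array weights, and 444 and 457 without untreated replicates 2 and 3, and 506 and 512 without treated replicates 2 and 3. Centring or cyclic loess moved the median of all genes by under 0.1.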

Other observations

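In lists for other lineages, between 0 and 3 genes each were called with TNF, where 5.02% of all genes were called in wild type and 4.31% under the mutant label. Of 13 mast cell and basophil genes 2 fell in wild type, Mcpt8 (-2.15) and Hdc (-2.05), and 0 were called under the mutant label, where they read -1.48 and -1.5 (limma adjusted p = 0.0919 and 0.087; interactions 0.67 with SE 0.61 and 0.56 with SE 0.61). Of 11 erythroid genes 1 rose and 1 fell in both genotypes, the carbonic anhydrase gene Car2 (0.97 and 0.96) and the erythroid factor gene Klf1 (-0.66 and -0.65). Of 11 megakaryocyte genes the integrin gene Itgb3 was called in both (1.29 and 1.61), and the platelet glycoprotein gene Gp1bb in wild type (-0.59, against -0.33 under the mutant label with limma adjusted p = 0.236; interaction 0.26, SE 0.19). Of 12 B cell genes Rag1, a recombinase of early lymphocytes, rose by 1.98 and 2.27. Of 12 T and NK cell genes Nkg7 fell (-1.65 and -1.60) and Cd5 rose (1.78 and 2.28), and the NK receptor gene Klrd1 differed by 1.26 and 2.2 (limma adjusted p = 0.0757 and 0.00581; interaction 0.94, SE 0.5). Of 13 stromal genes Pecam1 fell (-1.20 and -1.15).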
